A study of Rattus norvegicus with 8 samples.

Results

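Endothelial genes were followed through the cortex and the outer medulla of rat kidneys with and without induced stones. The 10 genes were taken from a list of symbols, Kdr, Flt1, Tek, Eng, Cdh5, Pecam1, Emcn, Plvap, Ehd3 and Vwf, out of 15037 genes with a name on the array. All 10 had 1 probe set each. The animals were male Sprague-Dawley rats, 10 weeks old, with 1 Clariom S array for each of 2 zones and 4 treatments. The control group had no stone induction, and a further group had phlorizin without it. Stones were induced in another group with ethylene glycol and alfacalcidol over 2 weeks, called EG here, and the last group had EG together with phlorizin, an inhibitor of sodium-glucose cotransporters. Ethylene glycol is turned into oxalate in the body, and alfacalcidol is a vitamin D analogue. The dose of phlorizin and whether RNA of several animals was pooled are not given in the sources used here. All values are on the log2 scale, so a difference of 1 is a doubling, and with 1 array per group a difference between treatments in a zone has no replicate check.

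Endothelial cells line the glomerular capillaries, the peritubular capillaries of the cortex and the vascular bundles of the outer medulla. VEGF made by podocytes and tubules signals to them through the receptors VEGFR2, encoded by Kdr, and VEGFR1, encoded by Flt1, of which the latter binds VEGF tightly and can hold it away from VEGFR2. Angiopoietins signal through TIE2, encoded by Tek, and endoglin, encoded by Eng, is a co-receptor for BMP and TGF-beta ligands. VE-cadherin (Cdh5) and PECAM1 (Pecam1) hold neighbouring cells together, endomucin (Emcn) is a surface sialomucin of capillaries and veins, PLVAP (Plvap) forms the diaphragms of fenestrae, and von Willebrand factor (Vwf) is stored for haemostasis. EHD3 (Ehd3) acts in endocytic recycling and has been used as a marker of glomerular endothelium in the mouse.

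RefSeq promoters (build GRCr8) matched 6 of the 10 genes by symbol, Kdr, Flt1, Emcn, Plvap, Ehd3 and Eng. Shown are the 250 bases before the start of 3 of the 4 genes at least 1 lower with EG in both zones. These are Kdr, Emcn and Ehd3, and the other, Flt1, is not printed. Eng, which was not lower, is also shown. ETS factors such as ERG act at many endothelial genes, so AGGAAG and CCGGAA, 2 forms of the ETS core, were searched on both strands, and matches stand in capitals. No window held both motifs, so that no matches of the 2 overlap.
Kdr, chr14:32571813-32572062, plus strand: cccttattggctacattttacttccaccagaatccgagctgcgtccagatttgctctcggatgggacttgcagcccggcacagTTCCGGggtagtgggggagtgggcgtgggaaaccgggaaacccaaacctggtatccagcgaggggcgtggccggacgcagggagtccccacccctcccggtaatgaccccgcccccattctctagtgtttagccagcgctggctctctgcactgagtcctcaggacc
Emcn, chr2:228564289-228564538, plus strand: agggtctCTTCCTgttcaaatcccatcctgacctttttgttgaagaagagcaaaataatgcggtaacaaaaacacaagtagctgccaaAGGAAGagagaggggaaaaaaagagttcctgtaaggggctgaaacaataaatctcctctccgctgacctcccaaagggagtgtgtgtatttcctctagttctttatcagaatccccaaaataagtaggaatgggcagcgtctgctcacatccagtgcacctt
Ehd3, chr6:27417446-27417695, minus strand: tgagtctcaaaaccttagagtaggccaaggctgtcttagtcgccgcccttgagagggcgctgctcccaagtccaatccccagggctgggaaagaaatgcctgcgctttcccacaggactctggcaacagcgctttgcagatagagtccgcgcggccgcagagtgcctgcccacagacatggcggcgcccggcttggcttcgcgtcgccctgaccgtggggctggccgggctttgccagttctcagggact
Eng, chr3:36332029-36332278, plus strand: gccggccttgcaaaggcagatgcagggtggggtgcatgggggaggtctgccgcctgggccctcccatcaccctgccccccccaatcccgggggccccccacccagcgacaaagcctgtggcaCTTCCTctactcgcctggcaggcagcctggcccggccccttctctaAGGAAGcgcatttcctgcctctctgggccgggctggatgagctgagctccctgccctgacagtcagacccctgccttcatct
AGGAAG was found in 4 of the 6 windows (Flt1, Emcn, Plvap and Eng) and in 29.5% of all 33469 promoters of the same length. CCGGAA was found in 1 of the 6 (Kdr) and in 12.6% of all promoters. The letters of neither motif were in the Ehd3 window. The matches describe the sequences and were not tied to the expression values.

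Array medians over all probe sets for transcripts lay between 7.39 and 7.58, and 23 background probes averaged 5.53 to 5.68 per array. The cortex EG array had the lowest poly-A spike-in controls, at 6.42 against 7.46 to 8.23 on the other 7 arrays. The results on EG are therefore also given for the outer medulla alone. Hybridization spike-in controls were lowest on the EG arrays of both zones, at 10.39 in cortex and 10.65 in outer medulla. The other arrays had 10.80 to 11.33, so the outer medulla alone does not remove this difference. Its part in the EG differences was not tested. Tubule genes separated the zones as labelled, since all 4 cortical markers examined (Slc5a2, Slc34a1, Slc12a3 and Slc22a8) were lower in outer medulla and all 4 medullary markers (Slc12a1, Umod, Slc14a2 and Slc5a3) were higher there by limma at an adjusted p under 0.05. Of the endothelial genes, 9 lay above the background mean on all 8 arrays. Vwf lay below it on all 8, between 4.66 and 5.48, so that no difference of Vwf is given. Vwf was also left out of the tests, which were run on 13163 probe sets whose highest value reached 7.54, the median of all values.

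**Figure D1:**
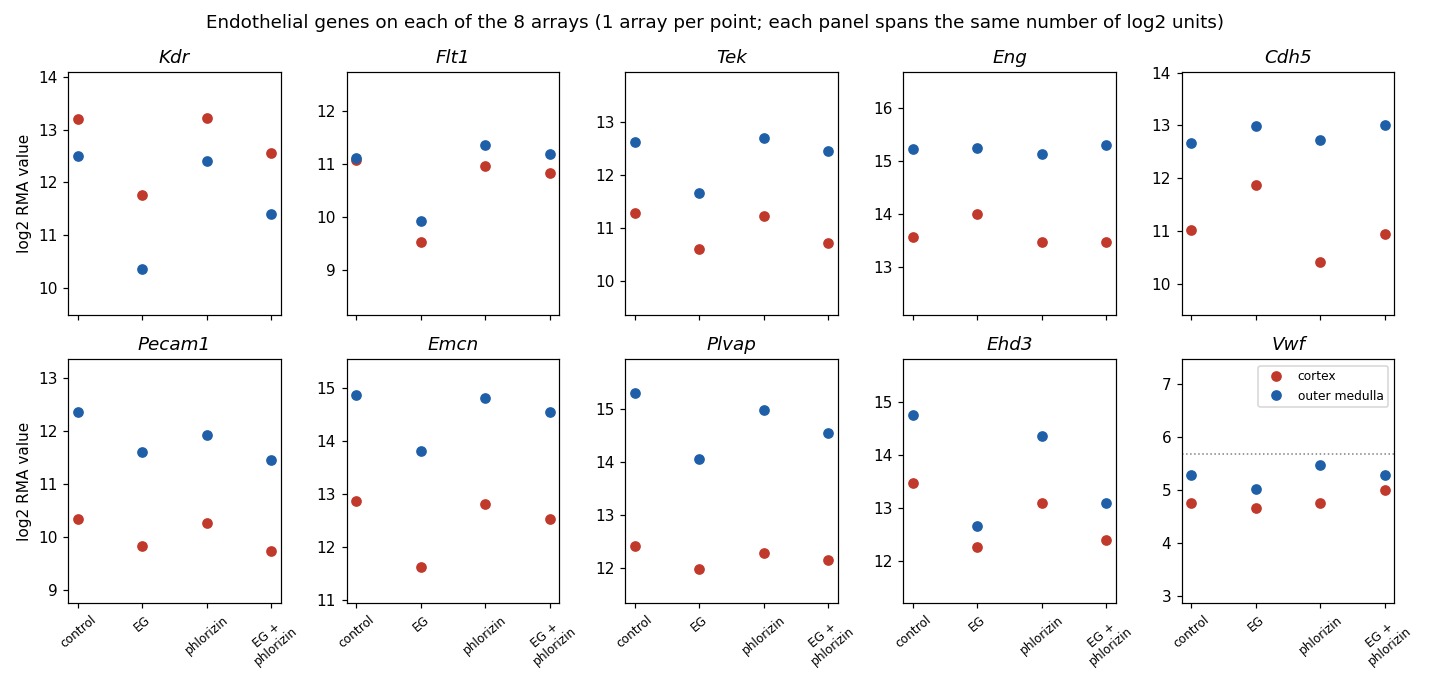
Values of the 10 endothelial genes (log2 RMA, vertical axis) on each array, by treatment (horizontal axis) and zone (red, cortex; blue, outer medulla). Each point is 1 array, and the dotted line in the Vwf panel is the highest background mean, 5.68. Kdr is the gene with higher values in cortex under every treatment. Of the genes above background, Kdr, Flt1, Tek, Emcn, Plvap and Ehd3 have their lowest value in each zone on the EG array.

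Most endothelial genes were more abundant in outer medulla than in cortex, and Kdr was the exception. In limma with the treatment as a block, 7 of the 9 tested genes rose from cortex to outer medulla at an adjusted p under 0.05, and 1, Kdr, fell. Over all tested probe sets 51.5% were called in this comparison, 32.7% higher and 18.8% lower. The median difference of the 9 genes was 1.63 between the control arrays, against 0.14 for all tested probe sets. The residual of this fit is the unequal zone difference of the 4 treatments. Nothing in the labels says that the arrays come from separate animals, so the p-values measure only the spread between these arrays. In bulk tissue, fewer endothelial cells and less RNA of a gene per cell cannot be told apart.

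Plvap, the gene of the fenestral diaphragm, had the widest zone difference of the 9. It stood at 12.42 (control), 11.98 (EG), 12.28 (phlorizin) and 12.14 (EG with phlorizin) in cortex, and at 15.29, 14.06, 14.97 and 14.55 in outer medulla, in the same order. The zones did not overlap. The difference was 2.51 (SE 0.17, n = 4 pairs of arrays, limma adjusted p = 0.000106), and between the control arrays it came to 7.35-fold.

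Emcn, the endomucin gene, stood at 12.86, 11.62, 12.80 and 12.52 in cortex and at 14.87, 13.82, 14.82 and 14.56 in outer medulla, in the order control, EG, phlorizin, EG with phlorizin. Every outer medulla array was above every cortex array, by a difference of 2.06 (SE 0.13, n = 4 pairs, limma adjusted p = 8.34e-05). The 4 pairs lay close together, between 2.00 and 2.20.

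Both junction genes rose in outer medulla. Pecam1 stood at 10.34, 9.82, 10.27 and 9.74 in cortex and at 12.37, 11.60, 11.93 and 11.46 in outer medulla (difference 1.80, SE 0.14, n = 4 pairs, limma adjusted p = 0.000154). Cdh5 stood at 11.03, 11.88, 10.42 and 10.95 in cortex and at 12.66, 12.99, 12.73 and 13.01 in outer medulla (1.78, SE 0.22, limma adjusted p = 0.000879). Neither gene overlapped between zones, but the pairs of Cdh5 varied more, from 1.11 with EG to 2.31 with phlorizin.

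Among the receptors, Tek and Eng were higher in outer medulla without overlap. Tek stood at 11.29, 10.61, 11.24 and 10.71 in cortex and at 12.63, 11.66, 12.70 and 12.46 in outer medulla (difference 1.40, SE 0.16, n = 4 pairs, limma adjusted p = 0.000669). Eng stood at 13.57, 14.00, 13.48 and 13.47 in cortex and at 15.23, 15.26, 15.14 and 15.31 in outer medulla (1.61, SE 0.15, limma adjusted p = 0.000313). Outer medullary Eng spanned 0.17 over the 4 treatments, the smallest span of the 9 genes in that zone.

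The VEGF receptors differed from this pattern. Kdr stood at 13.21 (control), 11.77 (EG), 13.22 (phlorizin) and 12.56 (EG with phlorizin) in cortex, and at 12.49, 10.36, 12.40 and 11.41 in outer medulla. It was lower in outer medulla under each treatment, by 1.02 on average (difference -1.02, SE 0.17, n = 4 pairs, limma adjusted p = 0.00284), although the zones overlapped, since the cortex EG array lay below the control and phlorizin arrays of the outer medulla. Flt1 stood at 11.08, 9.52, 10.96 and 10.82 in cortex and at 11.11, 9.92, 11.36 and 11.18 in outer medulla. Its zone difference of 0.30 did not pass (95% interval -0.04 to 0.64, n = 4 pairs, limma adjusted p = 0.115).

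Ehd3, the glomerular endothelial marker of the mouse, was higher in outer medulla. It stood at 13.47, 12.27, 13.09 and 12.40 in cortex and at 14.76, 12.66, 14.37 and 13.10 in outer medulla (difference 0.91, SE 0.20, n = 4 pairs, limma adjusted p = 0.00881). The zone difference was 1.29 and 1.27 without EG and 0.39 and 0.69 with it. In all, 6 of the 9 genes (Pecam1, Cdh5, Tek, Emcn, Plvap and Eng) had zones that did not overlap with the outer medulla higher, which held for 24.7% of all tested probe sets. For 0 of the 9 the outer medulla was lower without overlap, against 14.3%.

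**Figure D2:**
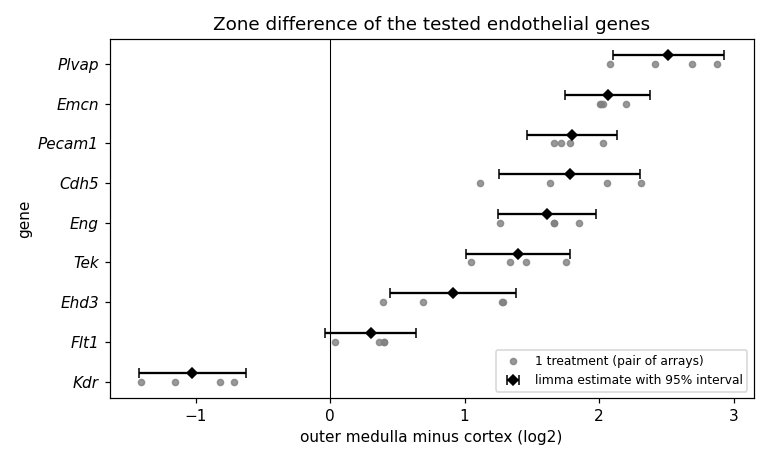
Outer medulla minus cortex (log2, horizontal axis) for the 9 tested endothelial genes. Grey points are the 4 treatments, each a pair of arrays, and black diamonds with bars are the limma estimates with 95% intervals. The intervals of 7 genes lie above 0, that of Flt1 spans 0 and that of Kdr lies below it.

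With EG, 7 of the 9 endothelial genes were lower than in the control in both zones, which held for 39% of all tested probe sets, and Cdh5 and Eng were higher in both (31.6% of all), Eng in outer medulla by 0.02, which became -0.04 with each array centred on its median. In cortex 4 genes were at least 1 lower (Kdr, Flt1, Emcn and Ehd3), against 12.7% of all tested probe sets, and 0 at least 1 higher (9.66%). In outer medulla 5 were at least 1 lower (the same 4 genes and Plvap), against 9.69%, and 0 at least 1 higher (8.58%). At least 1 lower in both zones were 4, against 4.47%. The medians were -0.68 in cortex and -1.05 in outer medulla, where all tested probe sets had medians of -0.07 and -0.05. These comparisons set 1 array against 1 array and carry no p-value.

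The VEGF receptors had the widest EG differences of the receptors. Kdr differed by -1.44 in cortex and by -2.13 in outer medulla, which left it at 36.9% and 22.8% of the control. Flt1 differed by -1.56 and -1.20, to 34.0% and 43.6% of the control, and its EG array was the lowest of its zone in both. Tek, the angiopoietin receptor, differed by -0.68 and -0.97. Eng differed by 0.43 and 0.02.

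Of Ehd3, Emcn and Plvap, Ehd3 differed most in outer medulla, by -2.10, which left it at 23.4% of the control. In cortex it differed by -1.20, to 43.5%. Emcn differed by -1.25 in cortex, the widest of the 3 there, and by -1.05 in outer medulla. Plvap differed by -0.44 in cortex and -1.24 in outer medulla. The junction genes went opposite ways, with Pecam1 at -0.52 and -0.76 and Cdh5 at 0.85 and 0.33. The EG differences of the 9 genes thus ran from -1.56 to 0.85 in cortex and from -2.13 to 0.33 in outer medulla.

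With phlorizin on board, the same 7 genes were again lower with EG in both zones, which held for 34.5% of all tested probe sets. Ehd3 differed by -0.69 in cortex and -1.27 in outer medulla, Kdr by -0.65 and -0.98, and Pecam1 by -0.53 and -0.47. Flt1 differed by -0.14 and -0.18, Emcn by -0.28 and -0.27, Tek by -0.53 and -0.24, and Plvap by -0.15 and -0.42. Ehd3 in outer medulla was the 1 gene at least 1 lower there (3.01% of all tested probe sets), and 0 were in cortex (1.55%). At least 1 higher were 0 of 9 in either zone (2.43% and 3.65%). Cdh5 was higher by 0.53 and 0.27, and Eng differed by -0.01 and 0.17. The medians were -0.28 and -0.27, against -0.05 and -0.02 for all tested probe sets. The EG difference was further below 0 without phlorizin than with it for 6 of 9 genes in cortex and 7 of 9 in outer medulla, as for 45.6% and 42.1% of all tested probe sets, and this difference between single arrays was not tested. Over all tested probe sets, too, fewer lay at least 1 lower with EG under phlorizin (1.55% and 3.01%) than without it (12.7% and 9.69%).

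**Figure D3:**
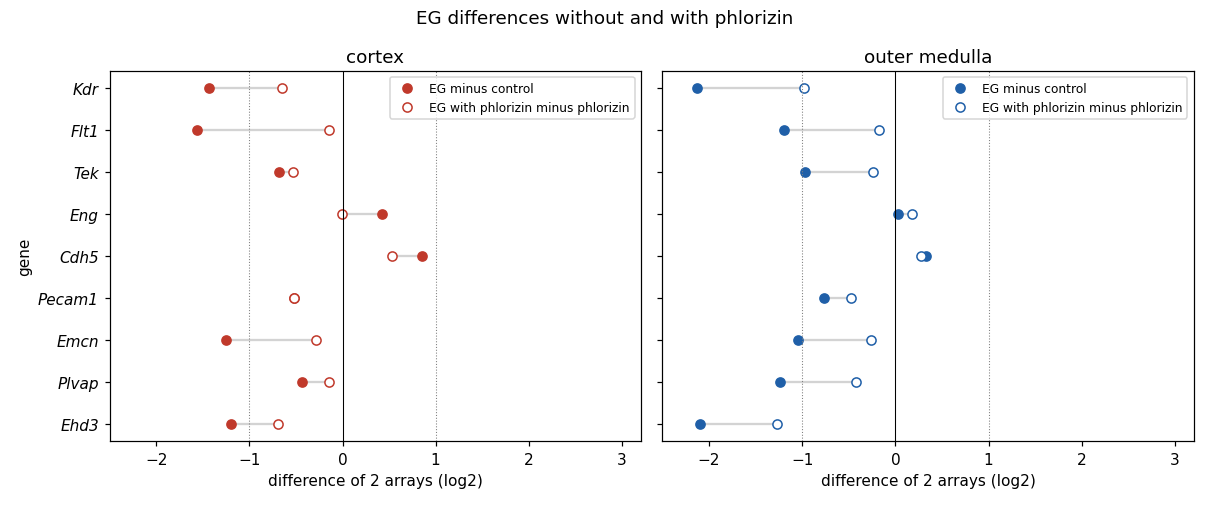
EG differences (log2, horizontal axis) of the 9 tested endothelial genes in each zone, without phlorizin (filled circles, EG minus control) and with phlorizin (open circles, EG with phlorizin minus phlorizin). Each circle is 1 array against 1 array, and dotted lines mark differences of 1. Flt1 lies at -1.56 and -1.20 without phlorizin and at -0.14 and -0.18 with it, while the circles of cortical Pecam1 coincide.

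Over both arms, the EG arrays lay below the arrays without EG with no overlap in both zones for 6 genes (Kdr, Tek, Pecam1, Emcn, Plvap and Ehd3), against 16.4% of all tested probe sets. By zone this held for 7 of 9 in cortex (31.1% of all) and 6 of 9 in outer medulla (31.2%), and all 7 were lower in all 4 pairs (22.3%). EG arrays were higher without overlap for 0 of 9 in cortex (21%) and for Cdh5 and Eng, 2 of 9, in outer medulla (26.8%), of which Eng overlapped after centring. For Flt1 the lower order held in cortex, while in outer medulla the array of EG with phlorizin (11.18) lay above the control (11.11). In the limma fit of EG on 4 profiles, each the mean of both zones, 0 of the 9 genes passed an adjusted p of 0.05, and the fit called 0.038% of all tested probe sets, 5 higher and 0 lower. With each array centred on its median, the same fit called 456 higher and 335 lower (2.55%), with Kdr and Ehd3 among the latter. At an unadjusted p under 0.05, 5 of the 9 were lower (Ehd3, Kdr, Pecam1, Tek and Emcn), as were 12.9% of all tested probe sets, and 0 were higher (9.85%). Ehd3 had a difference of -1.31 (95% interval -1.92 to -0.71, n = 4 profiles, limma adjusted p = 0.0833; 0.0287 to 0.221 over the alternatives). Kdr had a difference of -1.30 (95% interval -2.00 to -0.60, limma adjusted p = 0.0921; 0.0311 to 0.212 over the alternatives). With the outer medulla arrays alone, Ehd3 was the 1 of the 9 that passed, at -1.68 (limma adjusted p = 0.0478), where 0.896% of all tested probe sets were called lower. Kdr had -1.56 there (limma adjusted p = 0.0632), and the other 7 lay between -0.83 (Plvap) and 0.30 (Cdh5), with adjusted p-values from 0.147 to 0.829. The fit on 4 profiles counts an unequal EG difference in the phlorizin arms as residual, which widens the intervals of genes such as Flt1 (-0.77, 95% interval -1.56 to 0.03, limma adjusted p = 0.234).

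Whether the EG difference differed between zones was tested on the 4 zone differences, and 0 of the 9 genes passed, as did 0% of all tested probe sets. At an unadjusted limma p under 0.05, 1 of the 9 was lower (Ehd3), against 5.9% of all probe sets, and 0 were higher, against 6.47%. Ehd3 had an EG difference 0.74 further below 0 in outer medulla (difference -0.74, 95% interval -1.45 to -0.03, n = 4 zone differences, limma adjusted p = 0.392). For Plvap the value was -0.54 (95% interval -1.28 to 0.21, limma adjusted p = 0.527).

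Among the EG arrays, those with phlorizin had higher values of 6 endothelial genes in both zones, which held for 29.7% of all tested probe sets. These comparisons use the same EG arrays as EG against control. Flt1 was higher by 1.30 in cortex and 1.27 in outer medulla and was the 1 gene at least 1 higher in both zones (1.15% of all tested probe sets). Kdr was higher by 0.79 and 1.05, Emcn by 0.91 and 0.74, Tek by 0.10 and 0.80, Plvap by 0.16 and 0.49, and Ehd3 by 0.13 and 0.44. Pecam1 differed by -0.08 and -0.15, Eng by -0.53 and 0.06, and Cdh5 by -0.93 and 0.01. At least 1 higher were 1 of 9 in cortex (7.35% of all tested probe sets) and 2 of 9 in outer medulla (3.35%). At least 1 lower were 0 of 9 in either zone (6.18% and 4.34%). The medians were 0.13 and 0.49, against -0.04 and 0.02 for all.

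Without EG, phlorizin went with small differences. The 9 genes lay between -0.61 (Cdh5) and 0.01 (Kdr) in cortex and between -0.44 (Pecam1) and 0.25 (Flt1) in outer medulla, with medians of -0.09 in both, against -0.06 and -0.01 for all tested probe sets. None of the 9 was at least 1 higher or lower, as were 0.653% and 0.501% of all tested probe sets in cortex and 0.577% and 0.205% in outer medulla. Ehd3 differed by -0.37 and -0.39 and Plvap by -0.14 and -0.32. In the limma fit of phlorizin over both EG arms, 0 of 9 genes passed an adjusted p of 0.05, as did 0% of all tested probe sets. At an unadjusted limma p under 0.05 these were also 0 of 9, against 1.53% higher and 2.02% lower over all probe sets. The widest estimate was that of Flt1 at 0.67 (95% interval -0.12 to 1.47, n = 4 profiles, limma adjusted p = 0.995).

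A further 23 endothelial genes on the array gave a mixed picture with EG. Of the 20 tested, 7 were lower in both zones (39% of all tested probe sets) and 3 higher in both (31.6%). The medians were 0.03 in cortex and -0.25 in outer medulla, and 0 passed in the limma fit of EG. Rgcc, a cell cycle regulator, differed by -1.49 and -2.02, the adhesion gene Icam2 by -0.71 and -1.17, Clec14a, encoding a surface lectin of endothelium, by -0.37 and -1.35, and Nos3, the endothelial nitric oxide synthase gene, by -1.07 and -0.41. The 3 genes higher in both zones, named after their values were seen, were Fli1, an ETS factor gene, at 1.05 and 0.31, Calcrl, a receptor gene for adrenomedullin, at 0.25 and 0.63, and Adgrl4, an adhesion receptor gene, at 0.61 and 0.05. Between zones 15 of the 20 rose in outer medulla and 0 fell, by limma at an adjusted p under 0.05, against 32.7% and 18.8% of all tested probe sets. The zone difference of Rgcc did not pass (-0.04, limma adjusted p = 0.872).

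The ligands and co-receptors of VEGF and angiopoietin signalling did not differ in one direction. Of 12 tested, 3 were lower with EG in both zones (39% of all tested probe sets) and 2 higher in both (31.6%), with medians of 0.21 and -0.24. Nrp2, a co-receptor for VEGF-C and semaphorins, differed by 2.46 in cortex and 1.49 in outer medulla, and the angiopoietin-like gene Angptl2 by 1.56 and 1.68. Vegfb differed by -1.07 and -1.02. Angpt1, the activating TIE2 ligand, went from 10.63 to 9.76 in cortex and from 8.74 to 11.46 in outer medulla. Vegfa, the main VEGFR2 ligand, and Angpt2, the context-dependent TIE2 ligand, were chosen after their values were seen. Vegfa differed by -0.66 and -1.07, and Angpt2, high in outer medulla (12.20 in the control), by 0.46 and -1.29.

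Genes of endothelial subtypes and states were as varied. Among 9 tested Notch and arterial genes the medians were 0.11 and -0.06. Sema3g, an arterial semaphorin gene, differed by -2.06 in cortex and -0.08 in outer medulla, Cxcl12 by -0.70 and 0.12, Notch1 by 0.69 and -0.20, and Gja4, encoding connexin 37, by -0.06 and 0.54. Of 11 venous, capillary and lymphatic genes, 4 were lower and 5 higher in both zones (39% and 31.6% of all tested probe sets). Lyve1, a receptor of lymphatic endothelium and some macrophages, differed by 2.34 and 0.31, and Pdpn, found on lymphatics and podocytes, by 0.91 and 2.78. Prox1 differed by -0.79 and -1.89, and Aqp1, which tubules also express, by -1.32 and -1.24. In cortex Prox1 lay near background, at 5.81 in the control and 5.02 with EG, the latter below the 5.53 of its array. In outer medulla it went from 11.52 to 9.63. The zone difference of Prox1 was 5.24 (limma adjusted p = 2.62e-05). Which cells gave its outer medulla values was not tested, so they are not read as lymphatic RNA. Slc14a1, the urea transporter gene of the descending vasa recta, was chosen after its values were seen. It lay below background on all 4 cortex arrays and at 10.44, 11.82, 11.11 and 11.87 in outer medulla, where both arrays with EG were the higher ones.

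Of the 7 tested genes of endothelial activation and adhesion, 4 were higher with EG in both zones (31.6% of all tested probe sets) and 1 lower (39%). The medians were 0.65 and 0.44, and which cells of the tissue gave these values was not tested. Icam1, a leukocyte adhesion molecule gene, differed by 1.20 and 1.28 without phlorizin and by 1.43 and 1.29 with it. Vcam1 differed by 0.55 and 1.66, Hif1a by 0.65 and 0.47, and Edn1, encoding endothelin 1, by 1.66 and -0.08. Among the 12 tested partners of endoglin, 5 were lower and 5 higher in both zones (39% and 31.6% of all tested probe sets). The inhibitory Smad7 differed by -1.66 and -0.90 and Smad6 by -0.58 and -1.46, while the ligand gene Bmp6 differed by 2.47 and 1.70 and Bmp4 by -2.11 and -0.47. None of the tested genes in these 6 lists passed an adjusted p of 0.05 in the limma fit of EG.

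**Figure D4:**
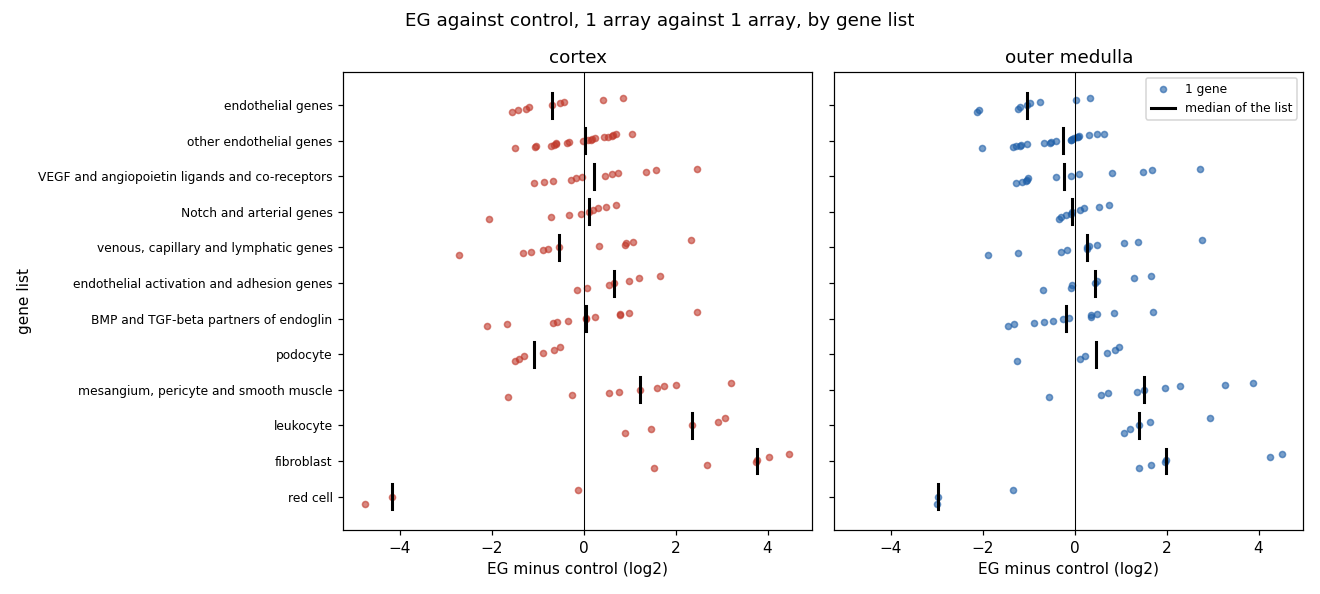
EG minus control (log2, horizontal axis) for the tested genes of each list (vertical axis) in each zone. Each point is 1 gene, and black bars are medians. The endothelial genes have medians of -0.68 and -1.05, and the leukocyte and fibroblast lists have medians above 1 in both zones.

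Markers of other cells also differed on these arrays. Leukocytes also carry Pecam1, and mesenchymal cells and macrophages also carry Eng. Of all tested probe sets, 31.6% were higher with EG in both zones and 39% lower. All 5 tested leukocyte markers had higher EG values in each zone, at medians of 2.35 and 1.39. The sum of the log2 values of the 7 on the array went from 66.1 to 80.6 in cortex and from 72.9 to 83.3 in outer medulla. Such a sum, called summed level below, is not an amount of RNA. It includes genes of a list that were too dim for the tests. Under phlorizin the sum went from 66.5 to 72.1 and from 72.9 to 79.1. All 6 tested fibroblast markers also had higher EG values, at medians of 3.77 and 1.98, with a summed level of the 7 on the array from 69.4 to 89.4 and from 77.7 to 92.7 (under phlorizin, from 69.0 to 74.4 and from 78.6 to 86.2). Of 9 genes of mesangium, pericytes and smooth muscle 6 were above the control in both zones. The medians of the 9 were 1.22 and 1.51, and their summed level went from 86.4 to 95.6 and from 94.6 to 109.6. The 3 tested genes of the red cell list were lower in both zones, with Hbb going from 12.04 to 7.86 and from 14.69 to 11.72. In cortex Alas2 lay near background and went from 6.07 to 5.96. The summed level of the 5 on the array went from 41.8 to 33.1 and from 48.7 to 41.4. Under phlorizin it went from 40.5 to 39.8 and from 49.3 to 49.9. With EG under phlorizin the 3 parted, at 0.37 and 0.44 for Hbb, 0.26 and 1.12 for Alas2, and -1.19 and -1.03 for Slc4a1. The 3 were thus not alike as markers of red cells, and which cells gave the Slc4a1 values was not tested. The podocyte markers, which share the glomerulus with its capillaries, had a median of -1.09 in cortex and 0.46 in outer medulla. The summed level of the 6 went from 60.3 to 54.1 and from 52.8 to 54.4. In outer medulla Nphs1 lay below background on the control and EG arrays. Cdkn1c was higher there than in cortex, by 2.87 between the control arrays and 4.72 between the EG arrays. The outer medulla values of this list therefore cannot be read as podocyte RNA, and which cells gave them was not tested. No platelet marker of the 5 on the array reached the tests, with Ppbp and Gp5 below background on all 8 arrays and a summed level of 23.0 to 24.6 over all arrays. The part of these cell types in the values of the endothelial genes was not tested.

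The genes most like the endothelial genes by their pattern over arrays included genes outside the lists. After centring on each zone's mean, Kdr correlated with the mean of the 9 genes at r = 0.98, Plvap at 0.96, Ehd3 at 0.96, Tek at 0.96 and Emcn at 0.90 over the 8 arrays, and Flt1 at 0.84 and Pecam1 at 0.80. Each of these genes is part of that mean. Cdh5 lay at -0.56 and Eng at -0.46. Outside the lists, Atp23 and G6pc1, the latter encoding the glucose-6-phosphatase of gluconeogenesis, correlated best at 0.997 and 0.996, followed by Shld2 at 0.996, Dlat, a subunit gene of the pyruvate dehydrogenase complex, at 0.994 and Strbp at 0.993. These values describe 8 arrays that share normalization and, by zone, possibly animals.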

How the data were processed

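RNA of 8 rat kidney samples was measured on Clariom S arrays. The deposited values are log2 expression values that the authors made with RMA, per the submitters' processing notes. No RMA version was found in the sources used here. That the scale is base 2 was read from the range, 2.28 to 19.7. Values were used as deposited. Of 24834 probe sets, 23188 were for transcripts and 15049 of these had a gene name. The probe set with the highest mean stood for each of the 10 symbols with several, none of them an endothelial gene of the report. The fits used limma 3.58.1 (R 4.3.3), 2-sided p-values and Benjamini-Hochberg adjustment over all 13163 tested probe sets. Zones were compared over 8 arrays with the treatment as a block. EG and phlorizin were fitted together on 4 profiles, and EG by zone on 4 zone differences, each with 1 residual degree of freedom before moderation. No p-value was computed for single arrays. Scripts were tested on simulated data. Python 3.11.15 (pandas 2.3.3, matplotlib 3.10.9) made summaries and figures.

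The members and gene lists were chosen with earlier results of these data known. The rule for named genes took, beside the members, up to 4 tested genes of each list with the largest EG minus control difference averaged over zones, and 5 genes by correlation. The number of arrays, 1 per group, limits the precision.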

Additional observations from a re-analysis of the deposited data

Results flagged for a closer look

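Of 107 tested genes of all lists that lay above background on all 8 arrays, the endothelial members included, 16 had EG differences of opposite sign in the zones in both phlorizin arms, and 0 of these were members. The share over all tested probe sets was not computed, so the count is not read as a result about the lists or the members. Each difference sets 1 array against 1 array, and several are small. The limma test of EG by zone passed for none of the 16 (adjusted p from 0.201 to 0.539). The smallest of a gene's 4 differences in size is given for each. Lower with EG in cortex and higher in outer medulla were Myh11 of smooth muscle at 0.76, Angpt1 at 0.336, the endothelial Cldn5 at 0.0572, Nrp1 at 0.0968 and the proximal tubule gene Slc34a1 at 0.212. So were 4 genes of the podocyte list, Cdkn1c at 0.565, Wt1 at 0.154, Synpo at 0.102 and Ptpro at 0.0924. Cdkn1c was higher in outer medulla than in cortex (3.44, limma adjusted p = 0.000585), while Ptpro was lower there (-2.25, limma adjusted p = 0.000577). Which cells gave these outer medulla values was not tested. Higher with EG in cortex and lower in outer medulla were Angpt2 at 0.422, Notch1 at 0.197, the endothelial genes Rasip1 at 0.194, Esam at 0.0596 and Ushbp1 at 0.0176, Edn1 at 0.0798 and the mesangial Itga8 at 0.0646. Nphs1 and Slc14a1 had the same signs as Myh11 but lay below background on some arrays.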

How the results depend on the processing

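All zone calls of the endothelial genes (7 higher, 1 lower) held under the 10 alternatives run, each treatment left out in turn included. Taking the other probe set could not change their differences, since each of these genes has 1 probe set. Without a filter 8 were called higher, since Vwf, below background on all 8 arrays, was then tested too. The count of genes called lower with EG depended on the setting, since it was 0 in the fit described and 2 with each array centred on its median, 2 without a filter, 3 with the 8 arrays as samples (whose zones may share animals) and 1 with the outer medulla arrays only. The 2 were Kdr and Ehd3, Pecam1 was the third, and Ehd3 was the 1. With quantile normalization, the stricter filter, the trended prior, the other probe set and the cortex arrays only it was 0. Several values that had passed no test crossed 0. The phlorizin difference of Cdh5 was 0.0429 and that of Ehd3 0.0239 with the outer medulla arrays only, and that of Ehd3 0.0123 after centring. The EG difference of Tek between zones was -0.0017 after centring and -0.0667 with quantile normalization. Among differences of single arrays, centring turned that of Eng for EG against control in outer medulla to -0.04 and that of Pecam1 for phlorizin among the cortex EG arrays to 0.04. Quantile normalization turned Eng for EG under phlorizin in cortex to 0.08, Cdh5 for phlorizin among the outer medulla EG arrays to -0.03, and Pecam1 and Tek for phlorizin alone in cortex to 0.01 and 0.01. Of the medians for EG against control, that of the other endothelial genes in cortex became -0.05 after centring and -0.03 without a filter, that of the endoglin partners in cortex -0.03 after centring, and that of the Notch genes in outer medulla 0.16 without a filter. Those of the VEGF and angiopoietin list became -0.17 in cortex and 0.81 in outer medulla with the stricter filter, which leaves fewer genes. Otherwise the cause was not tested.

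Counts of genes past a size moved mainly with the size. For EG against control, at least 1.5 lower were 1 in cortex and 2 in outer medulla, and Cdh5 made 1 higher in cortex at 0.5 and with quantile normalization. For EG under phlorizin, at least 0.5 lower were 4 and 2, 1 was higher in cortex at 0.5, and in outer medulla the count lower was 2 after centring and 0 at 1.5. For phlorizin among the EG arrays, at 0.5 there were 2 lower and 3 higher in cortex and 4 higher in outer medulla, at 1.5 there were 0 higher in both, and centring gave 2 higher in cortex. For phlorizin alone 1 was at least 0.5 lower in cortex. Over all tested probe sets, EG calls ran from 0 (quantile normalization, stricter filter) to 589 higher and 514 lower (8 arrays as samples), EG by zone called 74 higher and 38 lower with the trended prior against 0, and the stricter filter left 2856 zone calls higher against 4300. Centring moved the median of all tested probe sets from -0.04 to 0.08 for phlorizin among the cortex EG arrays, and the median zone difference from 0.19 to 0.08 with phlorizin and from 0.21 to 0.09 with both. The zones were paired by treatment in the fits, and no pairing by replicate number was possible, since each group has 1 array and the labels carry no such numbers. Dim genes such as Vwf could not be measured over background.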
